A study of Mus musculus with 3 samples.

Results

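A set of structural genes of the glomerular basement membrane was examined for peaks of the forkhead transcription factors Foxc1 and Foxc2. The set was Col4a1, Col4a2, Col4a3, Col4a4, Lama5, Lamb2, Lamc1, Nid1, Nid2 and Agrn. These 10 genes were chosen by name, out of 21883 protein-coding genes, with earlier results of these data known. Comparisons of the set with all genes are therefore descriptions and not an independent test. A peak was assigned to a gene when its summit lay in the RefSeq span of the gene (GRCm38, the same assembly as mm10) or within 50 kb of either end. The head-to-head collagen pairs were treated as single loci, which left 8 loci. By this rule 17 of 5213 Foxc1 peaks and 7 of 2881 Foxc2 peaks belonged to them.

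The peaks came from chromatin immunoprecipitation followed by sequencing (ChIP-seq) on kidney glomeruli of C57BL/6 mice aged 8 weeks, isolated with magnetic beads. The labels list 1 library with a Foxc1 antibody, 1 with a Foxc2 antibody and 1 of input DNA, and name no treatment, allele or replicate. The input library was not analysed here. No replicate measures the spread of a value, so the values are descriptions of these libraries and carry no p-value. Sequencing depth is unknown, since the peak lists hold no read counts, and a weaker site can be missed in either list. Glomeruli hold podocytes, mesangial cells and endothelium, and the cell type that carries a peak cannot be told apart in these lists. Peak lists hold no RNA level, so the tissue was looked at only through peaks at marker genes. Among 6 podocyte markers, Foxc1 summits were found at 6 and Foxc2 summits at 5, against 3 and 1 of 3 mesangial, 1 and 1 of 3 endothelial and 1 and 1 of 3 tubular markers. By the same rule, Foxc1 summits lay at 29.3% and Foxc2 summits at 23.2% of all protein-coding genes.

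The glomerular basement membrane is the sheet of extracellular matrix between the endothelium and the podocytes and forms part of the filter of the kidney. Its scaffold consists of a laminin network and a type IV collagen network, which are linked by nidogens and carry heparan sulfate proteoglycans such as agrin. In the mature membrane the main laminin trimer is made of the chains encoded by Lama5, Lamb2 and Lamc1, and the main collagen network contains the chains encoded by Col4a3 and Col4a4, which podocytes produce. The chains encoded by Col4a1 and Col4a2 form the collagen network found in basement membranes throughout the body.

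Sequence at a peak could be read where a peak reached into a RefSeq promoter window (GRCm38.p6, 250 bases before to 50 after an annotated start). Of the 10 genes, 7 had such windows, 8 windows in all. A Foxc2 peak covered 281 of the 300 bases of the Col4a4 window and 40 of the 300 bases of the upstream Agrn window, and a Foxc1 peak covered 7 bases of the latter. Over all 32851 windows of the table, 4.48% were touched by a Foxc2 peak and 1.12% by a Foxc1 peak. The stretches below are shown because they come from the promoter windows of structural genes that a peak reached. Each is on the minus strand, the strand of its gene. In the first, chr1:82586850-82586950, capitals mark the 21 bases centred on the Foxc2 summit. This stretch lies upstream of the start used for the promoter window but inside the annotated Col4a4 span, which ends at 82587034. In the second, chr4:156197534-156197738, capitals mark the 40 bases inside the Foxc2 peak, and the other bases lie between the peak and the gene.
Col4a4 upstream of its annotated start: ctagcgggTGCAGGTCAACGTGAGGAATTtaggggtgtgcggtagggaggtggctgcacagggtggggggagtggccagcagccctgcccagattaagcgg
Agrn upstream of its annotated span: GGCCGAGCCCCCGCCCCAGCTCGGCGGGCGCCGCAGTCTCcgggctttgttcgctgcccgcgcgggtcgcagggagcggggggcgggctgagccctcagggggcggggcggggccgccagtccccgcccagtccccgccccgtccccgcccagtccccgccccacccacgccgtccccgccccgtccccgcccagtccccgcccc
The 40 Agrn bases under the peak consisted of G and C for 85.0% and held 6 CpG sites. The Col4a4 stretch, which lay under the peak as a whole, did so for 64.4%, with 4 CpG sites in 101 bases.

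Forkhead proteins bind AT-rich sequences, and 3 strings of letters were searched on both strands of the promoter windows. The first was GTAAACA, the second was the related string GTAAATA, and the third was the shorter string TAAACA, which lies within the first. None of the 8 windows of the structural genes held any of the 3. Of all windows, 3.65% held GTAAACA, 3.04% held GTAAATA and 13.4% held TAAACA, and 15.8% held at least 1 of them. The windows of the structural genes were rich in G and C, with 83.3% at the upstream Agrn start, 74.0% at Col4a1, 73.7% at Col4a2, 72.7% at Lama5, 64.7% at Nid1, 63.3% at Col4a4 and 61.3% at the internal Agrn start. Lamb2 was the exception at 44.0%, and the median of all windows was 52.7%. Among windows with a G and C content of 60% or more, which 7 of the 8 were, 4.27% held any of the 3 letter strings. Of the windows of the structural genes, only that of Col4a4 held a peak summit, and both Agrn summits lay outside the upstream Agrn window. Peak sequence outside the windows was not analysed here, so the search does not cover most of the peaks.

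Each of the 10 listed genes carried at least 1 Foxc1 summit, and 6 of the 10 carried a Foxc2 summit. The list does not hold every component of the membrane. Col4a5 and Hspg2, counted below among further components and named after their values were seen, had 0 peaks of either antibody. The background was 29.3% of protein-coding genes with a Foxc1 summit under the same rule and 23.2% with a Foxc2 summit. The spans of the structural genes, with a median of 94.3 kb, were longer than the 17.2 kb of protein-coding genes as a whole. Among the 11977 genes whose spans lay in their range of 10.7 to 139 kb, here called genes of similar span, the shares were 32.0% and 25.9%. This set shares only the range of spans and was not matched gene by gene, so gene length is not fully accounted for. Summits of both antibodies lay at Col4a1, Col4a3, Col4a4, Lamc1, Nid1 and Agrn, 6 of 10 genes, against 12.5% of all protein-coding genes and 13.7% of those of similar span. Counted by locus, Foxc1 summits were at 8 of 8 and Foxc2 summits at 5 of 8. Lama5, Lamb2 and Nid2 were the loci with Foxc1 peaks and 0 Foxc2 peaks.

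**Figure D1:**
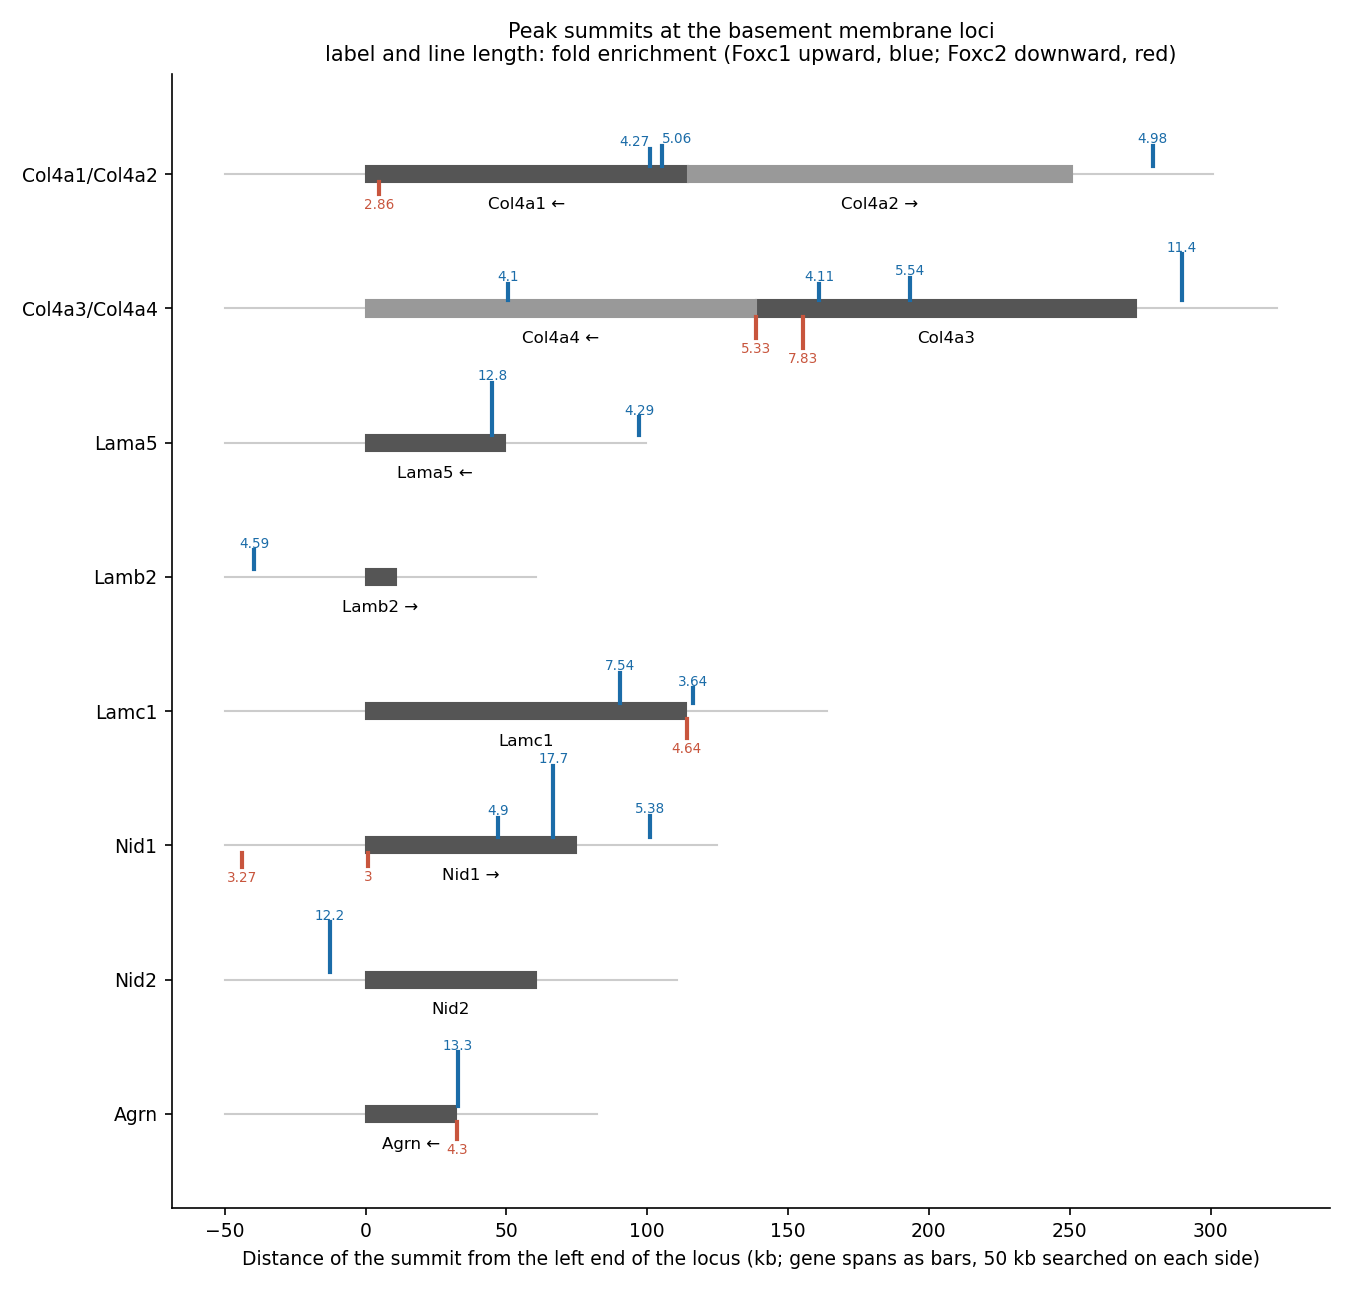
Maps of the 8 loci, with the distance in kb from the left end of each locus on the x axis and gene spans as grey bars, arrows giving the strand where the reference states it. Lines upward are Foxc1 summits and lines downward Foxc2 summits, with length and label giving the fold enrichment. Foxc1 summits appear at every locus, and Foxc2 summits at the 2 collagen loci, Lamc1, Nid1 and Agrn.

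Peaks were denser at these loci than over gene windows in general. The windows of the 8 loci came to 1.67 Mb and held 10.2 Foxc1 peaks per Mb and 4.20 Foxc2 peaks per Mb. Over the merged windows of all protein-coding genes the densities were 2.61 and 1.60 peaks per Mb. The structural genes had a median of 2 Foxc1 peaks and 1 Foxc2 peak each, while the median over all protein-coding genes was 0 for either antibody.

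Peak height is given as the fold enrichment over the local background, a value of the authors' peak caller that ranks peaks within a list and was not compared between lists. Of the 17 Foxc1 peaks, 6 exceeded the upper quartile of the Foxc1 list, a fold of 6.64, which 24.4% of that list exceeded. These 6 lay at Nid1, Agrn, Lama5, Nid2, Lamc1 and near Col4a3. The other 11 had folds between 3.64 and 5.54, around the list median of 4.90. Of the 7 Foxc2 peaks, 2 exceeded the upper quartile of their list, a fold of 4.65, and both were at the Col4a3/Col4a4 locus. In the Foxc2 list 25.0% of peaks exceeded that value.

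**Figure D2:**
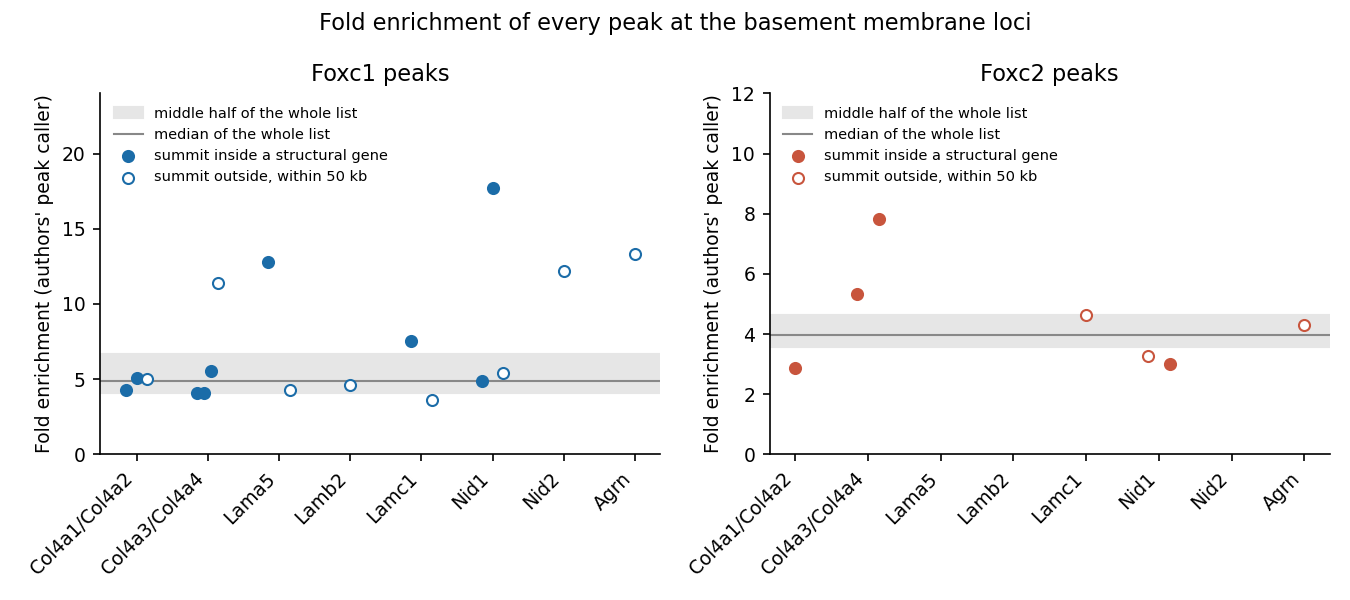
Fold enrichment of each peak (y axis, linear, starting at 0) by locus, for Foxc1 on the left and Foxc2 on the right. Filled points are summits inside a structural gene, open points summits outside within 50 kb, the grey band spans the quartiles of the whole list and the line is its median. The highest Foxc1 point is at Nid1 (17.7) and the highest Foxc2 point at Col4a3/Col4a4 (7.83).

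The collagen locus of the mature membrane, Col4a3 and Col4a4 on chromosome 1 (82448419 to 82722059), carried 4 Foxc1 and 2 Foxc2 peaks, the most of the 8 loci, over the longest window searched, 374 kb. Col4a3 and Col4a4 encode chains of the collagen network that is defective in Alport syndrome, and their annotated spans overlap head to head by 114 bp. A Foxc2 peak (82586819 to 82587332, fold 5.33) had its summit in that overlap, 11 bases inside the Col4a3 span and 102 bases inside the Col4a4 span. The summit lay 83 bases upstream of the Col4a4 start of the promoter table, within the capitals of the first sequence above. The stronger Foxc2 peak (82603429 to 82603826) reached a fold of 7.83, rank 70 of 2881 in its list. It lay inside Col4a3, 16.6 kb from the end of Col4a4. The nearest Foxc1 peak, inside Col4a3 at a fold of 4.11, had its summit 5.80 kb farther on, so the peaks of the antibodies were neighbours and did not overlap.

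The locus had 3 other Foxc1 peaks, 1 of them beyond the collagen genes. That inside Col4a3 at 82641550 to 82641919 had a fold of 5.54, and that inside Col4a4 at 82498847 to 82499142 a fold of 4.10, 87.9 kb from the shared start region. The strongest Foxc1 peak of the locus (82738043 to 82738457, fold 11.4, rank 420 of 5213) lay 16.2 kb beyond the far end of Col4a3. It sat inside the neighbouring gene Mff, which encodes a mitochondrial fission factor, and the nearer gene end was that of Mff at 13.4 kb. Col4a3 by itself counted 3 Foxc1 and 2 Foxc2 peaks, and 201 protein-coding genes (0.919%) had at least as many of each, without correction for gene length. Col4a4 counted 2 and 2, reached or exceeded by 453 genes (2.07%).

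At the other head-to-head pair, Col4a1 and Col4a2 on chromosome 8 (11198423 to 11449287), neither list had a peak at the shared start region. The annotated spans overlap by 85 bp, and the nearest summit was a Foxc1 summit inside Col4a1, 9.06 kb from the Col4a2 start. That peak (11303622 to 11303907) had a fold of 5.06, and a second Foxc1 peak inside Col4a1 (11299311 to 11299563), 13.4 kb from the Col4a2 start, had a fold of 4.27. The third Foxc1 peak of the locus, at a fold of 4.98, lay 28.6 kb beyond the far end of Col4a2 in Rab20, a small GTPase gene, 0.746 kb from an end of that gene. The only Foxc2 peak had a fold of 2.86, rank 2768 of 2881, and lay inside Col4a1 at 4.82 kb from its downstream end. Col4a2 had 0 Foxc2 summits and 0 Foxc1 summits inside its span of 136 kb. The 2 collagen loci are of similar size, 251 and 274 kb, and differed in that a Foxc2 summit fell on the shared start of Col4a3 and Col4a4 and the nearest Foxc2 summit to the Col4a1 and Col4a2 starts was 110 kb away.

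Among the laminin genes, Foxc1 peaks lay at each of the 3 loci and a Foxc2 peak at Lamc1. Lama5, on chromosome 2 (180176373 to 180225904), encodes the alpha chain of the mature laminin trimer. It held a Foxc1 peak of fold 12.8 (180221135 to 180221612, rank 328 of 5213) inside the gene, 4.55 kb from the end where its transcription starts. Its other Foxc1 peak, of fold 4.29, was 47.7 kb away and 0.106 kb from an end of Cables2. Lamb2, on chromosome 9 (108479847 to 108490530), encodes the beta chain, whose loss causes Pierson syndrome with congenital nephrotic syndrome. With a span of 10.7 kb it is the shortest of the 10 genes, and its single Foxc1 peak (fold 4.59) lay 39.4 kb away inside BC048562. The rule assigned that peak to 7 genes. No peak of either list lay nearer to Lamb2.

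Lamc1, on chromosome 1 (153218922 to 153332786), encodes the gamma chain and had peaks of both antibodies around the higher-numbered end of its span. A Foxc2 peak (153332684 to 153333027) had a fold of 4.64 and its summit 0.159 kb outside that end. A Foxc1 peak of low rank, 4613 of 5213 (153334890 to 153335230, fold 3.64), followed at 2.32 kb outside the same end, and a gap of 1.86 kb separated the peaks. The stronger Foxc1 peak (153308935 to 153309338), at a fold of 7.54 and rank 1005 of 5213, lay inside the gene, 23.7 kb from that end. All 3 were assigned to Lamc1 and to no other protein-coding gene.

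The nidogens, which tie laminin to collagen IV, differed from each other in the number of peaks. Nid1, on chromosome 13 (13437602 to 13512275), had the highest Foxc1 fold of the 17 peaks, 17.7, at rank 150 of 5213 (13504014 to 13504493). Its summit was inside the gene, 66.7 kb from the start and 8.01 kb from the downstream end. A further Foxc1 peak inside the gene had a fold of 4.90 and another, 26.5 kb beyond the downstream end, a fold of 5.38. The Foxc2 peaks of Nid1 were in the lower part of their list. That inside the gene (13438444 to 13438768, fold 3.00, rank 2681 of 2881) had its summit 0.912 kb downstream of the start, and that at 44.0 kb upstream (fold 3.27) lay 0.036 kb from an end of Gpr137b. Nid2, on chromosome 14 (19751257 to 19811787), had a single Foxc1 peak (19738306 to 19738926, fold 12.2, rank 360 of 5213) at 12.6 kb outside the lower-numbered end. This peak was 621 bp wide, against a median of 332 bp for the list, and Nid2 was the only protein-coding gene to which the rule assigned it. The nearest Foxc2 summit to it was 427 kb away.

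Agrn, on chromosome 4 (156165290 to 156197533), encodes agrin, the main heparan sulfate proteoglycan of the mature membrane, and was the gene at which peaks of the antibodies overlapped. The Foxc1 peak (156197732 to 156198289) had a fold of 13.3, rank 293 of 5213, and the Foxc2 peak (156197699 to 156197931) a fold of 4.30, rank 1019 of 2881. They shared 200 bp, and their summits, 0.530 and 0.287 kb upstream of the span, lay 0.243 kb apart. The second sequence above is the side of this place nearest to the gene. Both peaks were also assigned to 6 neighbouring genes by the 50 kb rule, which makes 7 in all, and the nearest gene end was that of Agrn.

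Peaks of the antibodies overlapped at 1 place among these genes. Of the 17 Foxc1 peaks, the 1 at Agrn met a Foxc2 peak (5.88%, with a 95% interval of 0.149 to 28.7% by the exact Clopper-Pearson method, counting error only), against 8.20% of the Foxc1 list. Of the 7 Foxc2 peaks, 1 met a Foxc1 peak (14.3%, interval 0.361 to 57.9%), against 14.8% of the Foxc2 list. With 17 and 7 peaks these intervals are wide, and whether the shares differ from those of the whole lists was not tested.

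The antibodies had their peaks at different distances from the genes, here as over the whole lists. Foxc2 summits lay within 1 kb of a start in 4 of 7 cases, at Col4a3/Col4a4, Lamc1, Nid1 and Agrn. For Col4a3, Lamc1 and Nid2 either end of the span was taken as a start, since the strand was not given by the tables used. Foxc1 summits lay there in 1 of 17 cases, at Agrn. Counted to any protein-coding start of the promoter table, the same for peaks and lists, 3 of 7 Foxc2 summits (42.9%) and 3 of 17 Foxc1 summits (17.6%) lay within 1 kb, against 49.0% and 8.32% over the lists. Measured to an end of any protein-coding gene, 5 of 7 Foxc2 and 3 of 17 Foxc1 summits were within 1 kb, against 52.4% of the Foxc2 list and 10.8% of the Foxc1 list. Summits at the structural genes were a median of 0.287 kb (Foxc2) and 12.6 kb (Foxc1) from a gene end, compared with 0.797 and 20.8 kb over the lists. The assignment rule limits how far outside a gene the summits at the structural genes can lie, and the lists have no such limit. Counted by gene, 5 of the 10 structural genes had a Foxc2 summit within 1 kb of an end of their own span and 1 had a Foxc1 summit there, against 7.48% and 2.92% of protein-coding genes and 9.29% and 3.36% of those of similar span. Col4a3 and Col4a4 share 1 of these Foxc2 summits.

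**Figure D3:**
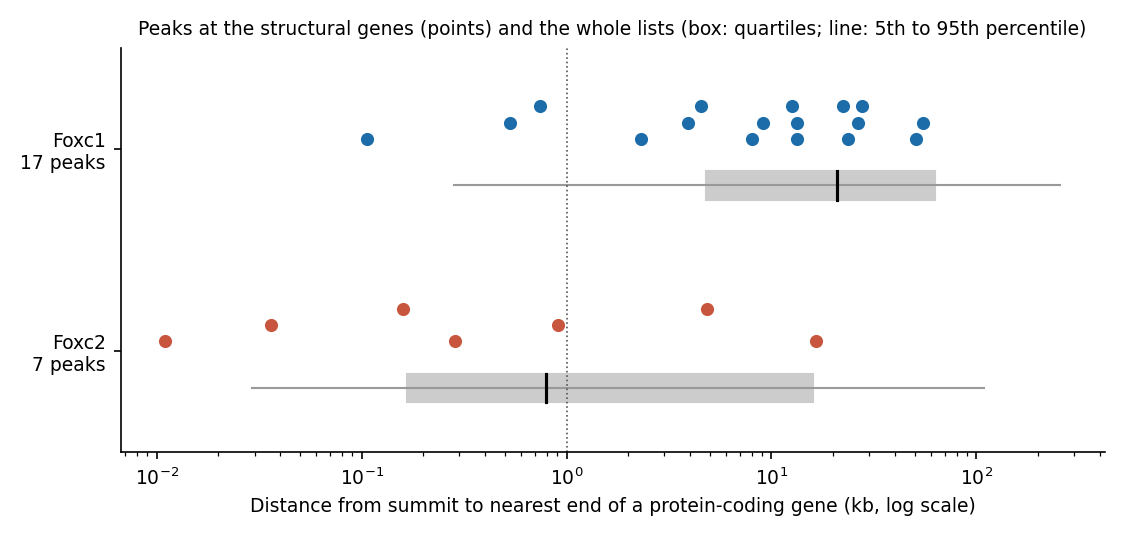
Distance from each summit to the nearest end of a protein-coding gene, in kb on a log axis, for the 17 Foxc1 and 7 Foxc2 peaks at the structural genes (points) and for the whole lists (grey box for quartiles, black line for the median, thin line from the 5th to the 95th percentile). The assignment rule limits how far outside a gene a point can lie, and the dotted line marks 1 kb, with 5 of 7 Foxc2 points and 3 of 17 Foxc1 points to its left.

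Inside a protein-coding gene of any kind lay 12 of the 17 Foxc1 summits (70.6%) and 5 of the 7 Foxc2 summits (71.4%), against 56.4% and 66.3% over the lists. The lists include peaks farther than 50 kb from any gene, which the assignment rule leaves out at the structural genes. Of list peaks within 50 kb of a gene or inside it, 2939 of 4409 (Foxc1) and 1908 of 2700 (Foxc2) lay inside. Inside the structural genes themselves lay 9 Foxc1 and 4 Foxc2 summits. They fell in 6 genes for Foxc1, namely Col4a1, Col4a3, Col4a4, Lama5, Lamc1 and Nid1, against 9.53% of protein-coding genes, and 11.0% of those of similar span, with a Foxc1 summit inside. Foxc2 summits fell inside Col4a1, Col4a3, Col4a4 and Nid1, against 7.58% of protein-coding genes and 9.43% of those of similar span. Outside the structural genes, 4 Foxc1 peaks and 1 Foxc2 peak had another gene's end nearer, at Rab20, Mff, Cables2, BC048562 and Gpr137b. Without these, a rule chosen after the values were seen, 9 of 10 structural genes had a Foxc1 summit, Lamb2 being the exception, and 6 of 10 a Foxc2 summit. Col4a2 counted among the 9 only through the 2 Foxc1 summits inside Col4a1, to which the Col4a2 end was nearest. It had 0 Foxc1 summits inside its own span. With summits counted for a gene that holds them or has the nearest end within 50 kb, the shares of all protein-coding genes were 14.7% and 10.4%.

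At the limit of the assignment rule, the farthest peaks inside 50 kb were the Foxc1 peak 47.7 kb from Lama5 and the Foxc2 peak 44.0 kb from Nid1. The nearest beyond it were a Foxc1 peak 56.8 kb from Nid2 (fold 5.22) and a Foxc2 peak 57.1 kb from Lama5 (fold 3.10). The next summits outside the other loci lay 107 kb or more from the gene spans.

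Further genes of the basement membrane were counted from 3 lists. Of 24 further components, 9 had a Foxc1 summit (37.5%) and Foxc2 summits lay at 2 (8.33%), against the 29.3% and 23.2% of all protein-coding genes, and 0 had both. None of the 3 lists was set against genes of similar span, and spans of these components reached 636 kb. Tinagl1, a matrix protein related to the tubulointerstitial nephritis antigen, had 2 Foxc1 peaks reaching a fold of 38.6. Fras1, an extracellular matrix protein mutated in Fraser syndrome, had 2 reaching 33.7, in a span of 411 kb. Hmcn1, which encodes a hemicentin, had 2 reaching 7.91, and Lamb1, the laminin beta chain of the immature membrane, had 2 reaching 5.22. Col4a5, whose chain joins those of Col4a3 and Col4a4, its neighbour Col4a6 and the perlecan gene Hspg2 had 0 peaks of either antibody, and were named after their values were seen.

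Of 16 genes that process, crosslink or turn over collagen IV and other matrix, 6 (37.5%) lay near Foxc1 summits and 1 (6.25%) near a Foxc2 summit, against 29.3% and 23.2% of all protein-coding genes. Serpinh1, the collagen chaperone, had 2 Foxc1 peaks reaching a fold of 8.54. P4ha1, a subunit of prolyl hydroxylase, Plod3, a lysyl hydroxylase, and Mmp14, a membrane-bound matrix metalloproteinase, had 1 each. The fold was 20.7 at P4ha1 and 6.96 at Mmp14, with Plod3 between them. The Foxc2 summit of this group, at Mia3, had a fold of 2.75, and Mia3 was named after its value was seen.

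Among 13 receptors of the basement membrane, 7 (53.8%) had a Foxc1 summit, the same number a Foxc2 summit, and 5 had both, against 29.3%, 23.2% and 12.5% of all protein-coding genes. Dag1, which encodes dystroglycan, had 2 peaks of each antibody, with folds of up to 3.96 for Foxc1 and 4.17 for Foxc2. Itga3 and Itgb1, the chains of the main laminin receptor of podocytes, and Cd151, a tetraspanin that binds this integrin, had 2 Foxc1 peaks and 1 Foxc2 peak each. Counted by gene, Lamc1 and Col4a1 had the same pair of counts, as did 428 protein-coding genes in all (1.96%). The highest Foxc1 folds at Itga3, Itgb1 and Cd151 were 5.70, 19.1 and 29.5, and the Foxc2 folds 6.19, 3.40 and 8.29. Whether the lists differ from the structural genes was not tested, since genes are not replicates.

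**Figure D4:**
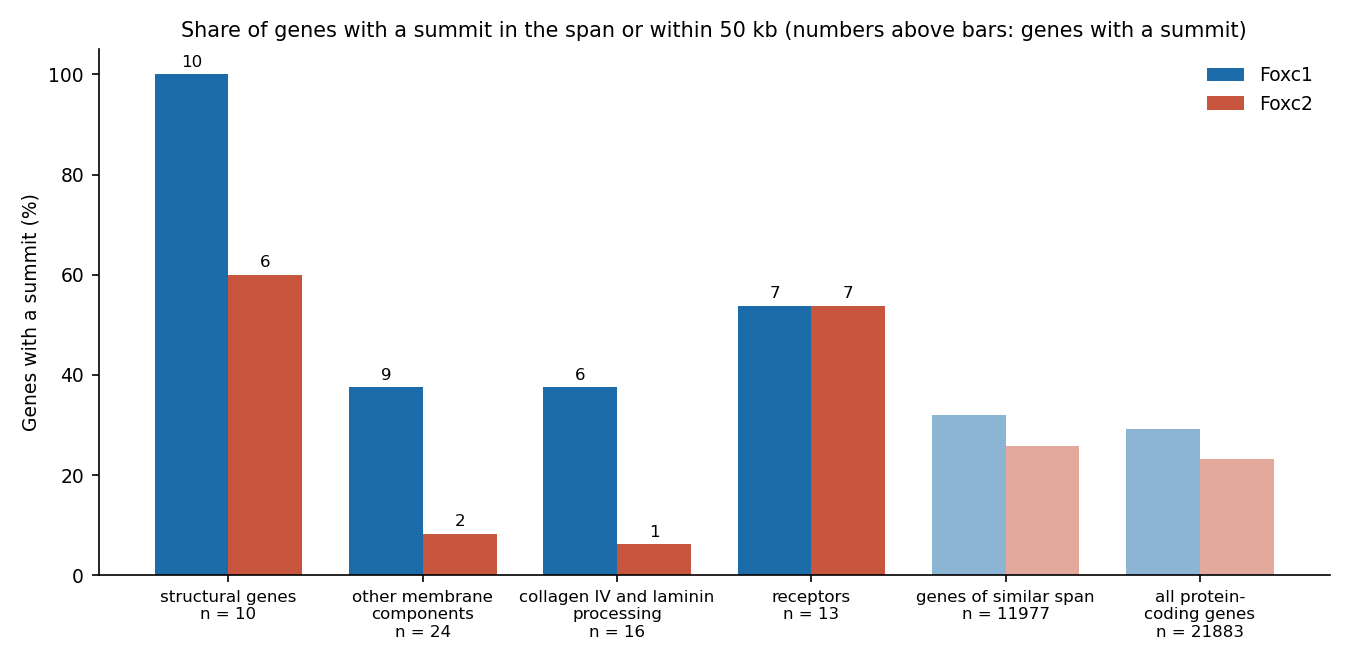
Percent of genes with a Foxc1 (blue) or Foxc2 (red) summit in the span or within 50 kb, for the 10 structural genes, the 3 other basement membrane lists, genes with a span in the range of the structural genes and all protein-coding genes. Bars start at 0 and the numbers above them are genes with a summit, from 10 of 10 for Foxc1 at the structural genes to 1 of 16 for Foxc2 at the processing genes.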

How the data were processed

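The deposited files were 1 peak list per antibody. The submitters' processing notes name Bowtie2, MACS2 and the build mm10. The versions, settings, control and any pooling are not stated there. Each deposited list gives a fold enrichment (a ratio to local background), −log10 of p and of q, and a summit offset. The deposited score is 10 times the −log10 q without decimals and was not used.

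Summits were assigned with Python 3.11.15, numpy 2.4.6 and pandas 2.3.3 to gene spans of the RefSeq table of GRCm38.p6, with 50 kb on each side. Overlap was counted from 1 bp. Exact intervals came from scipy 1.17.1. The procedure was tested on simulated data with planted peaks. The genes were given by name. From each other list the 4 genes with the most peaks were named, with ties broken by fold. The genes, lists and rules were chosen with earlier results of these data known. Alternatives covered distance, peak strength, overlap and start definition. A nearest gene is the nearest in that table.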

Additional observations from a re-analysis of the deposited data

How the results depend on the processing

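Of 68 alternative values, 43 stayed within 1.5 times the reported count. With summits inside gene spans alone, the structural genes with a Foxc1 summit were 6 in place of 10, against 9.53% of all protein-coding genes, and peaks numbered 9 for Foxc1 and 4 for Foxc2. Under the same setting 0 of the 24 further components had a Foxc2 summit, against 7.58% of all genes. Foxc1 summits lay in 1 of the 16 processing genes. Of the 13 receptors 3 had a summit for each antibody, against 9.53% (Foxc1) and 7.58% (Foxc2) of all genes. The processing genes gave 3 of 16 with Foxc1 at 20 kb and 10 at 100 kb, against 19.1% and 42.6% of all genes, and the further components 4 of 24 with Foxc2 at 100 kb, against 33.6%. With folds of 5 or more, 2 structural genes had a Foxc2 summit and 8 a Foxc1 summit, against 3.90% and 16.9% of all genes. This cut is stricter for Foxc2. It lies near the Foxc1 list median of 4.90 and above the Foxc2 upper quartile of 4.65. The 2 genes with a Foxc2 summit were Col4a3 and Col4a4, a single locus whose Foxc2 peaks were assigned to both. This setting left 9 Foxc1 and 2 Foxc2 peaks, 0 peaks of either list overlapped, and 1 Foxc2 peak lay within 1 kb of a start. A q-value limit of 1e-05 left 4 Foxc2 peaks, and a Foxc1 list trimmed to the size of the Foxc2 list left 11 Foxc1 peaks. The overlap at Agrn gave 0 for both antibodies with a reciprocal overlap of 50% or summits within 200 bp. Foxc1 peaks near a start were 0 within 0.5 kb, 3 within 5 kb and 3 with the start of any protein-coding gene. The setting that left out peaks nearer to another gene was chosen after seeing the data. No paired analysis was possible because each antibody has 1 library.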
